A study of Mus musculus with 32 samples.

Results

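The cadherins and protocadherins are cell-surface adhesion proteins, and 86 of their genes were read here in allele-specific brain RNA. Members were the autosomal genes whose symbol begins with Pcdh, or with Cdh and a digit, Cdh5 left out, with at least 20 informative reads summed over the pools of a region, where an informative read lies over a base that differs between the parent strains. They made up 86 of the 16131 autosomal genes that reached that minimum, with 85 in the embryonic brain, 80 in the preoptic area and 81 in the prefrontal cortex. The clustered protocadherins gave 56 members (14 Pcdha, 20 Pcdhb, 22 Pcdhg). The other 30 were 5 type I and 11 type II cadherins, 3 atypical cadherins, 3 delta1, 4 delta2 and 4 other solitary protocadherins.

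The study crossed 2 inbred mouse strains, CAST/EiJ (CAST), derived from wild castaneus mice, and C57BL/6J (B6), in both directions, and sequenced poly A RNA of the F1 brain. The F1i offspring had a CAST mother and a B6 father, and the F1r offspring a B6 mother and a CAST father. Adult tissue was taken at 5 weeks of age from the preoptic area of the hypothalamus (POA) and from the medial prefrontal cortex (PFC). Each region had 4 pools, 1 per sex and cross, made from 8 to 10 animals. Whole brain of embryonic day 15 (E15) gave 1 pool per cross, of 4 to 5 embryos whose sex was not stated, and 1 pool of each parent strain. No animal carried a transgene or had a treatment in the labels, and all F1 animals hold 1 CAST and 1 B6 copy of every autosomal gene. Technical replicates had been summed by the authors, so a pool is the replicate here, and p-values measure the spread between pools.

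Cadherins bind calcium and join cells through their outer domains. Classical cadherins (types I and II) hold like cells together and reach the actin skeleton through the catenins, and type II members differ between brain nuclei and cortical areas. The clustered protocadherins lie in tandem on chromosome 18, where a neuron switches on a few promoters, and the isoforms it displays let its branches tell self from other. Each Pcdha or Pcdhg isoform joins its own large first exon to constant exons common to its cluster, whereas a Pcdhb gene is a single exon with no constant part.

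The pools held 4523275 to 9392740 informative reads in the POA, 7717733 to 11973759 in the PFC, and 15621378 (F1i) and 16771580 (F1r) at E15. A base was listed only if every pool of its region had at least 1 read there. The median CAST share over all genes was 47.3 to 49.4% in the 10 pools. The tables repeat the reads of constant exon bases under every isoform of the cluster: at these bases lay a median of 83.2% of the POA reads, 86.0% of the PFC reads and 81.5% of the E15 reads of a Pcdha symbol, and 61.7%, 58.8% and 54.7% of those of a Pcdhg symbol. Values "at isoform bases" below leave these bases out, an alternative chosen after seeing the data, while counts of members called come first from all bases. Reads of 36 bases can also be shared between near-identical isoforms, so single clustered members are less certain than the others, and the reads carry no strand.

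Levels of different genes were compared per listed base, as RPM (informative reads, scaled per-million with edgeR's TMM factors, at bases listed in all 3 tables) divided by the number of those bases. Over the 67 members with such bases, Cdh13 (T-cadherin, held in the membrane by a lipid anchor) was highest in the POA at 13.1 ± 0.77 per base (SD, n = 4), followed by Cdh2 (N-cadherin, the main classical cadherin of neurons and their progenitors) at 9.01 ± 0.49. In the PFC the clustered isoform Pcdhgc5 was highest at these bases at 18.7 ± 2.53 per base, with Cdh13 at 16.8 ± 2.92, a gap within their spread. That order depends on the bases used. Over the bases listed for the PFC alone, Pcdh1 stood above both, at 33.0 ± 2.38 on a single base. Pcdhgc5 was then at 13.0 ± 1.87 and Cdh13 at 12.7 ± 2.18 per base. At E15 Cdh2 led at 24.0 ± 1.49 per base (SD, n = 2) and Cdh13 followed at 15.6 ± 3.68. Pcdhgc5 stood at 3.86 ± 0.66 per base in the POA and at 0.71 ± 0.25 at E15. The type II cadherin Cdh11 and the delta protocadherins Pcdh9, Pcdh10 and Pcdh17 stayed near each other in all 3 tissues, between 4.41 and 6.50 per base on average.

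Between the adult regions, the cadherins and solitary protocadherins that differed were mostly higher in the POA. The clustered isoforms that differed were mostly higher in the PFC, but at isoform bases most clustered isoforms did not pass the test. Over all bases, 40 of the 72 members tested passed an adjusted p of 0.05, beside 55.3% of all genes. The test was the quasi-likelihood test of edgeR, adjusted over all genes by Benjamini-Hochberg, called the edgeR adjusted p below. The share of members called was thus near the background over all bases, where constant exon reads are repeated. Of the 40, 13 were higher in the POA (26.7% of all genes) and 27 lower (28.6% of all genes). The clustered members gave 2 higher and 24 lower of 50, and the others 11 higher and 3 lower of 22. With the constant bases left out, the clustered members gave 3 higher and 8 lower of 47. Among all genes 26.6% were then higher and 28.6% lower, 55.2% in all, so the clustered share was below the background in each direction. The median log2 difference was then -0.26 over the clustered members and 0.29 over the others, against -0.003 over all genes.

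**Figure D1:**
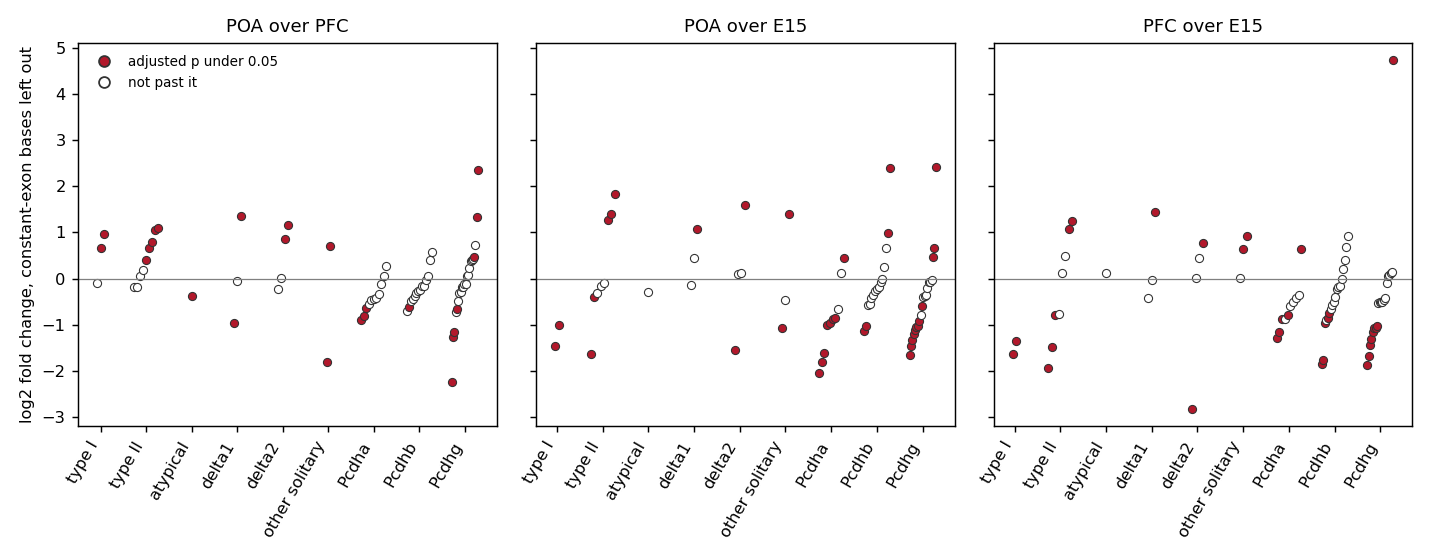
Log2 fold change of each member tested (vertical axis, constant exon bases left out) by role group, for POA over PFC, POA over E15 and PFC over E15. Each point is a member, and filled points passed an edgeR adjusted p of 0.05. In POA over PFC no filled type II cadherin lies below 0 and no filled Pcdha isoform above it.

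Among the type I cadherins, Cdh4 (R-cadherin) had 46.1, 39.8, 44.0 and 39.8 RPM in the POA pools (F1i male, F1i female, F1r male, F1r female, the order used throughout), against 29.4, 32.1, 27.5 and 17.2 in the PFC pools. Every POA pool was above every PFC pool, with a log2 difference of 0.67 ± 0.15 (SE; edgeR adjusted p = 0.0023), but on its single base with most reads the value was -0.44 (edgeR adjusted p = 0.20). Cdh2 did not pass the test, at -0.09 on the log2 scale, with 111 to 124 RPM in the POA and 98.0 to 149 in the PFC. Cdh15 (M-cadherin, first known from muscle) was near the low end, with 1.48, 2.41, 2.59 and 1.80 RPM in the POA pools and 0.778, 0.616, 1.56 and 1.40 in the PFC pools at the 3 bases common to both regions. Its ranges overlapped, and its log2 difference of 0.98 ± 0.34 (edgeR adjusted p = 0.025) was called in 4 of the 8 fits that left out a pool.

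Of 9 type II cadherins tested, 5 were higher in the POA and none lower. Cdh20 had 24.3, 22.3, 25.9 and 22.3 RPM in the POA, against 10.2, 12.2, 12.2 and 13.6 in the PFC, a log2 difference of 1.05 ± 0.13 (edgeR adjusted p = 2.6e-05) with no overlap. Cdh22 had 30.2, 37.3, 31.4 and 36.4 in the POA, against 19.4, 21.3, 17.1 and 19.3 in the PFC, again without overlap (log2 0.79 ± 0.12, edgeR adjusted p = 0.00013). Cdh24 had 14.9, 11.5, 11.7 and 12.7 in the POA, against 6.50, 4.75, 3.22 and 8.79 in the PFC (log2 1.10 ± 0.26, edgeR adjusted p = 0.0029), again with every POA pool above every PFC pool. Cdh7 and Cdh8 were higher in the POA by 0.67 and 0.41 on the log2 scale, each called in 3 of the 8 fits that left out a pool. Cdh6, Cdh11, Cdh18 and Cdh19 lay between -0.19 and 0.18 and did not pass. Of the atypical group only Cdh13 was tested, and it was lower in the POA by a log2 of -0.37 ± 0.10 (edgeR adjusted p = 0.0094), with 182, 197, 171 and 181 RPM in the POA pools and 284, 256, 197 and 207 in the PFC pools. The POA pool at 197 met the PFC pool at 197, and the call was lost in 1 of the 8 fits that left out a pool.

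The delta protocadherins, whose tails bind actin regulators and phosphatases, moved in both directions. Pcdh7 (delta1) had 11.95, 12.1, 11.99 and 12.1 RPM in the POA, against 5.53, 6.15, 5.80 and 2.80 in the PFC (log2 1.37 ± 0.20, edgeR adjusted p = 0.00011). Pcdh1 (delta1) went the other way, with 22.3, 24.5, 18.2 and 23.0 in the POA against 40.7, 49.0, 55.2 and 26.8 in the PFC (log2 -0.96 ± 0.20, edgeR adjusted p = 0.0011). Neither gene's pools overlapped between the regions. Pcdh8 (delta2, known as arcadlin and induced by neuronal activity) had 93.5, 97.7, 68.9 and 108 in the POA, against 54.5, 54.5, 45.1 and 46.1 in the PFC (log2 0.85 ± 0.13, edgeR adjusted p = 9.3e-05). Pcdh18 (delta2) was higher in the POA by 1.16 ± 0.30 on the log2 scale, at 2.74 to 3.54 RPM against 0.666 to 2.16. The female F1r pool was the lowest of the PFC pools for Cdh2, Cdh4, Pcdh1, Pcdh7 and Pcdh18. The same pool had the highest summed oligodendrocyte markers of the PFC pools, 3303 RPM against 949 to 1920 in the other 3, and the lowest astrocyte markers, 708 against 800 to 972, and their part in these values was not tested. Pcdh9, Pcdh10 and Pcdh17 did not pass, at -0.06, -0.22 and 0.01.

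Of the other solitary protocadherins, Pcdh20 was higher in the POA by 0.71 ± 0.17 on the log2 scale (edgeR adjusted p = 0.0033), with 20.8, 20.1, 21.1 and 17.7 RPM in the POA pools and 10.6, 11.8, 14.01 and 17.98 in the PFC pools, where the last PFC pool reached into the POA range. Pcdh21 (Cdhr1 in current annotation, the photoreceptor cadherin, also made by olfactory bulb output neurons) was lower in the POA, with 5.29, 4.33, 4.11 and 4.98 against 13.98, 18.02, 16.4 and 15.7 in the PFC. Its log2 difference of -1.80 ± 0.17 (edgeR adjusted p = 2.7e-06) came with no overlap.

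**Figure D2:**
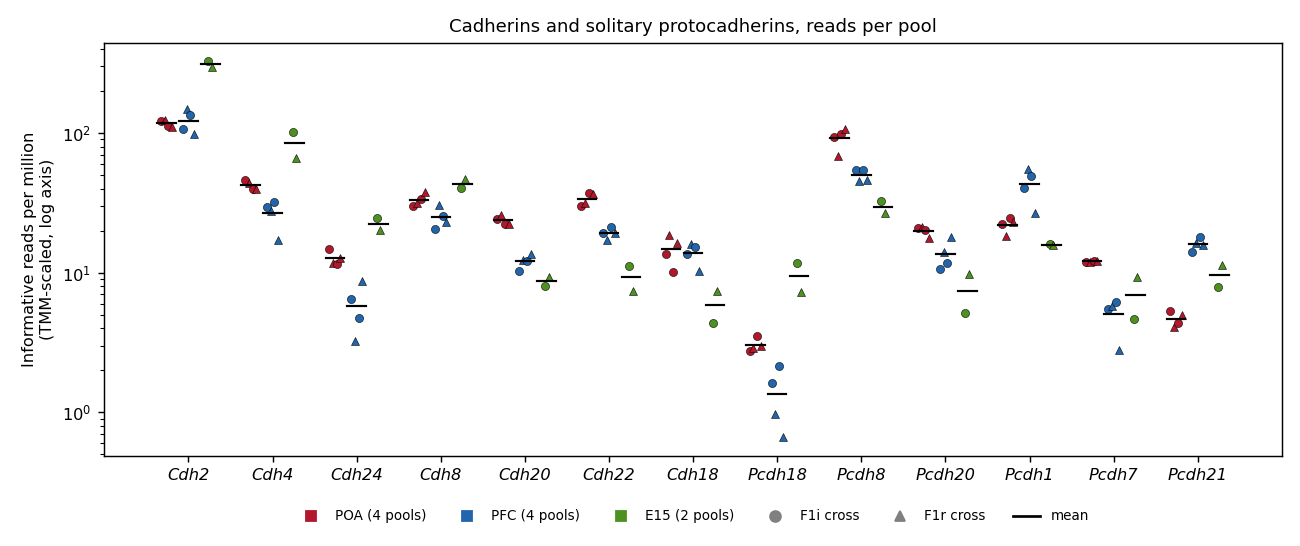
Informative reads as RPM (TMM-scaled, log axis) of 13 cadherins and solitary protocadherins, with a point per pool (circles F1i, triangles F1r) for the POA (red, 4 pools), the PFC (blue, 4 pools) and E15 (green, 2 pools), and a line at each mean. Cdh2 lies between 98.0 and 149 in the adult pools and at 325 and 298 at E15, while Pcdh21 lies between 4.11 and 5.29 in the POA and between 13.98 and 18.02 in the PFC.

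In the Pcdhg cluster the C-type isoforms, which lie at the end of the cluster and are used by many neurons rather than chosen at random, split between the regions. Pcdhgc4, an isoform on which neuron survival depends, had 21.9, 19.8, 20.6 and 20.7 RPM in the POA, against 5.04, 4.64, 2.74 and 3.596 in the PFC. Pcdhgc5 had 18.03, 19.9, 15.8 and 23.6 in the POA, against 94.5, 88.9, 111 and 80.8 in the PFC. The log2 differences were 2.35 ± 0.18 for Pcdhgc4 (edgeR adjusted p = 4.8e-07) and -2.25 ± 0.15 for Pcdhgc5 (edgeR adjusted p = 1.2e-07), both kept in all 8 fits that left out a pool, and neither isoform's pools overlapped. Pcdhgc3, by contrast, did not pass, at 18.7 to 27.5 in the POA and 13.2 to 21.7 in the PFC.

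Among the other Pcdhg isoforms, Pcdhga12 was lower in the POA by -1.27 ± 0.14 (log2, edgeR adjusted p = 7.1e-06), with 19.6, 23.7, 16.1 and 23.2 RPM against 48.3, 54.6, 51.1 and 42.5 in the PFC. Pcdhga11 was lower by -1.17 ± 0.23 (edgeR adjusted p = 0.00087), with 17.2, 19.96, 5.65 and 11.9 in the POA against 25.9, 34.5, 31.4 and 24.6 in the PFC. Neither overlapped between the regions, whereas Pcdhga7, higher in the POA by 0.48 ± 0.16 (edgeR adjusted p = 0.022), was called in 3 of the 8 fits that left out a pool. Over all bases 11 of the 22 Pcdhg symbols were lower in the POA, and at isoform bases 4 were lower and 3 higher. The third was Pcdhgb2, with 1.33 on the log2 scale at isoform bases (edgeR adjusted p = 0.0026) and -0.30 over all bases.

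Of the 14 Pcdha symbols 12 were lower in the POA over all bases, but the reads they share at 3 constant bases set most of that count. At isoform bases 3 of 11 were lower, namely Pcdha5 at -0.89, Pcdha8 at -0.81 and Pcdha6 at -0.65 on the log2 scale. Pcdha5 had 6.66, 7.97, 6.17 and 7.42 RPM in the POA, against 11.1, 15.8, 15.3 and 12.3 in the PFC, without overlap. Pcdha7, Pcdha10 and Pcdha11 were called over all bases alone, with log2 values of -0.53, -0.51 and -0.51. Of 14 Pcdhb genes tested only Pcdhb5 passed, at -0.62 ± 0.18 (edgeR adjusted p = 0.012). The calls of Pcdha6, Pcdha8 and Pcdhb5 over all bases were kept in 7 of the 8 fits that left out a pool.

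**Figure D3:**
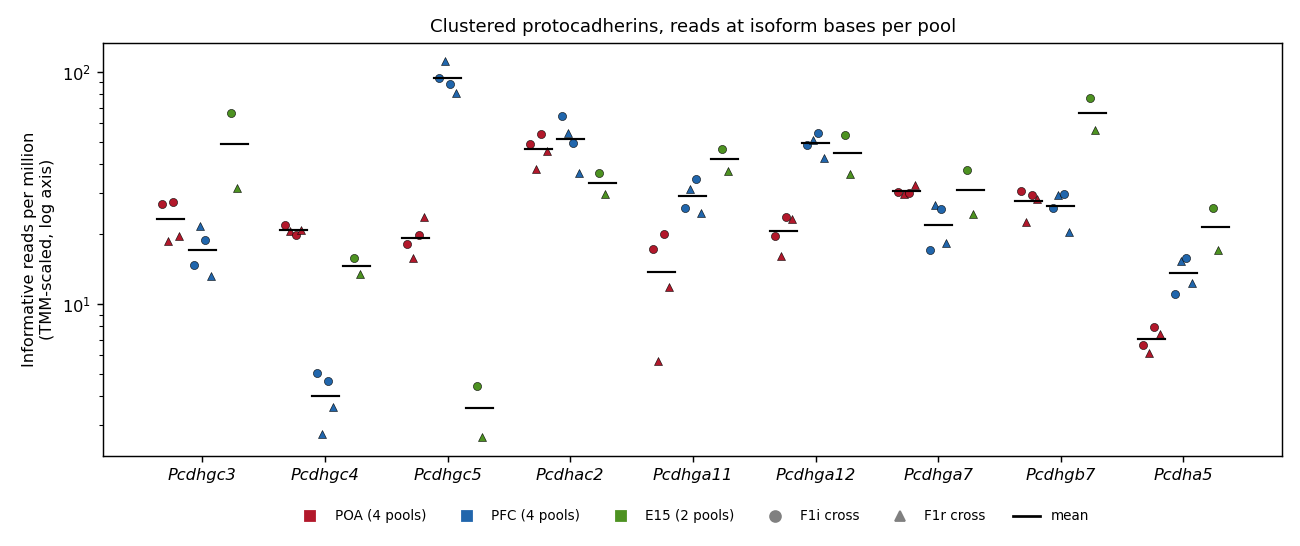
Informative reads as RPM (TMM-scaled, log axis) at isoform bases of 9 clustered protocadherins, with a point per pool for the POA (red, 4 pools), the PFC (blue, 4 pools) and E15 (green, 2 pools), circles for F1i and triangles for F1r, and a line at each mean. Pcdhgc5 runs from 15.8 to 23.6 in the POA, from 80.8 to 111 in the PFC and is at 4.42 and 2.67 at E15, whereas Pcdhgc4 is lowest in the PFC.

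Against the embryonic brain, both adult regions had less of Cdh2, Cdh4, Cdh6, Cdh8 and Pcdh18 and more of Cdh18, Cdh22, Pcdh8, Pcdh20 and Pcdhgc5. For the POA 36 of 72 members passed the edgeR test over all bases, 10 higher and 26 lower, beside 62.8% of all genes (30.6% higher and 32.2% lower). For the PFC 25 of 75 passed, 7 higher and 18 lower, beside 53.4% of all genes (26.5% higher and 26.9% lower). At isoform bases the counts were 36 of 66 for the POA (62.8% of all genes) and 31 of 69 for the PFC (53.5% of all genes). Both adult comparisons share the E15 pools. Whole brain holds more parts than a dissected region, and in bulk RNA fewer cells of a kind and less RNA per cell cannot be told apart.

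Cdh2 had 122, 113, 124 and 111 RPM in the POA pools and 107, 134, 149 and 98.0 in the PFC pools, against 325 and 298 at E15 (F1i, F1r). Both E15 pools were above every adult pool, with log2 values of -1.46 ± 0.13 in the POA (edgeR adjusted p = 5.2e-06) and -1.35 ± 0.20 in the PFC (edgeR adjusted p = 0.00021). Cdh4 was lower by -1.01 and -1.64 on the log2 scale in the POA and PFC, with 102 and 66.7 RPM at E15. Cdh6, a type II cadherin of early brain boundaries, was lower by -1.64 and -1.49. Cdh24 was lower than at E15 in the PFC, at -1.94 ± 0.33 (edgeR adjusted p = 0.00049), and was -0.32 in the POA, where it did not pass. Cdh8 was lower by -0.41 in the POA, called in 2 of the 6 fits that left out a pool and at 0.076 on its single base with most reads, and by -0.79 in the PFC.

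Of the type II cadherins 3 were higher in the adult POA. Cdh22 was higher in the POA than at E15 by 1.84 ± 0.21 on the log2 scale (edgeR adjusted p = 3.9e-05) and in the PFC by 1.08 ± 0.24 (edgeR adjusted p = 0.0025), with 11.1 and 7.43 RPM at E15, below all 8 adult pools. Cdh18 was higher by 1.28 and 1.25, the PFC call being kept in 5 of 6 fits that left out a pool. Cdh20 was higher in the POA by 1.41 ± 0.19 (edgeR adjusted p = 9.6e-05) and was 0.48 in the PFC, where it did not pass. Cdh11 and Cdh13 did not pass in either region.

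Pcdh18 fell to 2.74, 3.54, 2.91 and 2.99 RPM in the POA and to 1.63, 2.16, 0.966 and 0.666 in the PFC, against 11.7 and 7.31 at E15 (log2 -1.56 ± 0.20 and -2.83 ± 0.32, edgeR adjusted p = 8.1e-05 and 2.6e-05). No adult pool reached either E15 pool. Pcdh8 was higher by 1.59 in the POA and 0.76 in the PFC, and Pcdh20 by 1.40 and 0.91. Pcdh7 was higher in the POA by 1.07 and was -0.43 in the PFC, where it did not pass, and Pcdh1 was higher in the PFC by 1.44 and was 0.44 in the POA, where it did not pass. Pcdh21 was lower than at E15 in the POA, by -1.07 ± 0.24 (edgeR adjusted p = 0.0029), and higher in the PFC, by 0.64 ± 0.20 (edgeR adjusted p = 0.020), the PFC call being kept in 3 of the 6 fits that left out a pool and at -0.40 on the single base with most reads, where it did not pass.

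The C-type isoforms again differed from each other. Pcdhgc5 was higher than at E15 in the POA by 2.42 ± 0.28 (log2, edgeR adjusted p = 4.0e-05) and in the PFC by 4.74 ± 0.29 (edgeR adjusted p = 4.8e-07), the highest log2 value of the members called against E15, with 4.42 and 2.67 RPM at E15. Pcdhgc4 was lower in the PFC by -1.88 ± 0.26 (edgeR adjusted p = 0.00012) and higher in the POA by 0.46 ± 0.18 (edgeR adjusted p = 0.044), the POA call being kept in 1 of the 6 fits that left out a pool and turned to -0.65 (edgeR adjusted p = 0.016) with all bases listed in each table. Pcdhgc3 was lower in both, by -1.06 and -1.45. Pcdhac2, the isoform that spaces serotonin axons, was higher at isoform bases by 0.45 in the POA (edgeR adjusted p = 0.026) and 0.63 in the PFC (edgeR adjusted p = 0.034), and was -0.10 and 0.18 over all bases, where it did not pass.

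Most other clustered isoforms that passed were lower in the adult. At isoform bases 7 of 10 Pcdha and 9 of 20 Pcdhg symbols were lower in the POA, and 4 of 10 and 8 of 20 in the PFC, beside 32.2% of all genes called lower in the POA and 26.9% in the PFC. Pcdha2 was lower by -2.05 in the POA and -1.29 in the PFC, Pcdha5 by -1.62 and -0.89, Pcdhgb7 by -1.20 and -1.32, and Pcdhga10 by -1.33 and -1.08, all at isoform bases. Pcdhga11 and Pcdhga12 were lower in the POA, by -1.66 and -1.12, and did not pass in the PFC, at -0.51 and 0.14. Of the Pcdhb genes 2 of 15 were lower and 2 higher in the POA (32.2% and 30.6% of all genes), and 5 of 18 lower in the PFC (26.9% of all genes). Pcdhb17 and Pcdhb20 were lower in both (in the PFC kept in 3 and 5 of the 6 fits that left out a pool), and Pcdhb10 was higher in the POA by 2.39 ± 0.45 (edgeR adjusted p = 0.0010) at 1.199 to 2.08 RPM against 0.242 and 0.348 at E15. This rests on 2 bases, and with all bases listed in each table Pcdhb10 was lower, at -1.85 (edgeR adjusted p = 0.00015).

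The partner genes were read from lists that held no member. Of the catenins, which tie cadherins to actin, 1 was higher and 2 lower of 7 in POA over PFC, 1 higher and 4 lower in POA over E15, and 2 higher and 3 lower in PFC over E15. Of the genes for choosing clustered promoters (cohesin genes, Smchd1 and CTCF), 0 were higher and 3 lower of 6 in POA over PFC, 0 and 5 of 7 in POA over E15, and 0 and 4 of 6 in PFC over E15. CTCF had shared bases in POA over E15 alone, and Dnmt3b, also on this list, had none in any comparison and was not tested. Of the cytoplasmic partners of protocadherins (the WAVE complex and focal adhesion kinases), 2 were higher and 6 lower of 8 in POA over PFC, 4 higher and 1 lower in POA over E15, and 5 higher and 0 lower in PFC over E15. The larger cadherins (Fat, Dachsous, Celsr and calsyntenin genes) gave 4 higher and 2 lower of 9, 3 and 4 of 9, and 3 and 5 of 10 in the same order, and the proteases that cut cadherins 1 and 1, 1 and 1, and 1 and 0 of 4. The background shares are those given above.

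Cell type markers differed along with the tissues. The 2 cortical excitatory markers with bases in both regions summed to 4.41 to 7.29 RPM in the POA and 433 to 546 in the PFC, and both were lower in the POA. The 4 GABAergic and hypothalamic markers summed to 1474 to 1673 in the POA and 361 to 384 in the PFC, and all 4 were higher. The oligodendrocyte markers summed to 4646 to 5095 in the POA and 949 to 3303 in the PFC, with 4 of 4 higher, and the microglial ones to 126 to 143 and 196 to 220, with 2 of 3 lower. Against E15, 3 of 4 progenitor markers, all 3 meningeal ones and both blood ones tested were lower in each adult region, and all 3 oligodendrocyte and all 3 microglial markers were higher. Their part in the changes of the members was not tested.

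No member passed the test for the sex of the adult pools or for the direction of the cross in total reads. Between male and female pools 0 of 72 members passed edgeR's test, beside 0.0332% of all genes, with 3 members at an unadjusted p under 0.05 and 0 by DESeq2. Between F1i and F1r pools 0 of 72 passed, beside 0.0083% of all genes, with 14 at an unadjusted p under 0.05 and 0 by DESeq2. Counts at an unadjusted p, here and below, are over all bases, where constant exon reads are repeated. They are not set beside the share of all genes, so they show no excess among the members.

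The share of reads from the CAST copy of each gene was tested next, with both crosses in the fit, so that a log2 ratio of CAST over B6 of 0 is an even share. In the POA 41 of 68 members passed edgeR's test over all bases (36 with more CAST, 5 with more B6), beside 28.6% of all genes (11.7% with more CAST and 16.9% with more B6), and 20 of 61 at isoform bases (14 and 6), beside 28.4% (11.4% and 16.9%). In the PFC 23 of 68 passed (17 and 6), beside 36% of all genes (11.6% with more CAST and 24.4% with more B6), and 23 of 60 at isoform bases (16 and 7), beside 36% (11.6% and 24.4%). In the 2 E15 pools 3 of 84 passed (2 with more CAST, 1 with more B6), beside 11.9% of all genes (3.9% with more CAST and 8% with more B6). These were Pcdhgc3 and Pcdhgb7, both with a log2 ratio of 0.49, and Pcdhga12 at -0.53, which was 0.32 on its single base with most reads and did not pass there. At isoform bases 5 of 81 passed (3 and 2), beside 11.8% of all genes (3.87% and 7.89%). The allele ratio differed between POA and PFC for 21 of 63 members over all bases, beside 10.7% of all genes, and for 10 of 54 at isoform bases, beside 10.7%. Adult and E15 ratios differed for 0 of 63 members by edgeR and 0 by DESeq2, beside 1.34% of all genes, with 10 members at an unadjusted p under 0.05.

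Outside the clusters, Pcdh21 and Cdh13 had a POA minus PFC difference of the allele ratio that was called in all 8 fits that left out a pool. A few of their bases are printed, for Pcdh21 those placed on the genome with reads in every tissue, and for Cdh13 a base whose share was alike in both adult regions (exon 9) and one whose share was not (exon 10). Each line is the B6 reference on the transcript strand in NCBIM37 (the same build as mm9), 5′ to 3′, all within coding sequence, with the base that differs in CAST in capitals at position 15 from the 5′ end.
Pcdh21 exon 7 of 17, chr14:37903830-37903858, minus strand, G15T: gaccgtcacagcggGgtgctgagactcca
Pcdh21 exon 15 of 17, chr14:37894667-37894695, minus strand, T15C: ctggatgctgagggTacttcgaggtacaa
Pcdh21 exon 15 of 17, chr14:37894549-37894577, minus strand, G15A: agtttgtacagagcGtccaggaaaagaca
Cdh13 exon 9 of 14, chr8:121760699-121760727, plus strand, G15C: gaggagggagctgtGggggtcattgtcaa
Cdh13 exon 10 of 14, chr8:121766213-121766241, plus strand, A15G: gatgtcaacgagggAccagtcttctaccc

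Pcdh21 gave CAST shares of 80.0, 82.1, 82.3 and 77.9% in the PFC pools (170, 280, 175 and 195 reads), against 48.1, 54.5, 50 and 58.2% in the POA pools (27, 44, 24 and 55 reads) and 50.3 and 42.9% at E15. All 4 PFC pools lay above every POA and E15 pool. The log2 ratio of CAST over B6 was 2.06 ± 0.13 in the PFC (edgeR adjusted p = 2.4e-10), called in all 4 fits that left out a pool, and the POA minus PFC difference was -1.496 ± 0.31 (edgeR adjusted p = 0.0024), called in all 8. Of its 17 bases with at least 20 reads in the PFC all 17 held more CAST than B6 reads, from 57.9 to 95%. At the 3 printed bases, taken in that order, the CAST share was 86.7, 73.6 and 79.2% in the PFC and 52.0, 42.4 and 39.2% at E15, while the POA had only 10, 17 and 17 reads there. Reads that the authors aligned to the genome instead gave 79.3, 82.6, 81.7 and 77.2% for the gene in the PFC, against 45.5, 55.6, 41.2 and 61.4% in the POA (17 to 44 reads a pool).

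Cdh13 leaned to CAST in the POA, at 55.2, 56.8, 57.8 and 57.4%, against 49.0, 51.4, 51.3 and 50.8% in the PFC and 51.2 and 53.1% at E15. The ranges did not overlap between the adult regions, with a log2 ratio of 0.40 ± 0.05 in the POA (edgeR adjusted p = 7.3e-06) and a POA minus PFC difference of 0.36 ± 0.07 (edgeR adjusted p = 0.0015) called in all 8 fits that left out a pool. Its bases did not move alike. The printed exon 9 base held 62.3% CAST reads in the POA, 60% in the PFC and 67.9% at E15, whereas the exon 10 base held 59.2% in the POA, 37.0% in the PFC and 27.4% at E15. Over the single base with most reads the difference between the regions was -0.026 and did not pass. Reads aligned to the genome gave a smaller gap, with 55.3, 57.7, 57.7 and 57.4% in the POA pools and 52.3, 53.3, 54.97 and 55.2% in the PFC pools, where the highest PFC pool came close to the lowest POA pool.

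Cdh2 leaned to B6 in the PFC, at 45.8, 44.2, 44.97 and 46.1% CAST, against 46.9, 48.7, 53.3 and 54.4% in the POA, where the F1r pools were the higher ones. Its PFC log2 ratio was -0.28 ± 0.06 (edgeR adjusted p = 0.0019), against 0.13 on its single base with most reads, where it did not pass, and the POA minus PFC difference of 0.33 ± 0.09 (edgeR adjusted p = 0.017) was called in 5 of 8 fits that left out a pool. Pcdh20 leaned to CAST in the PFC, at 54.1, 65.8, 64.2 and 62.6%, against 48.9, 53.3, 46.9 and 50.2% in the POA (difference -0.71 ± 0.19, edgeR adjusted p = 0.019, called in 4 of 8). Cdh20 did so too, at 66.2, 65.4, 51.1 and 58.0% in the PFC against 50.3, 47.3, 52.2 and 41.9% in the POA (difference -0.75 ± 0.20, edgeR adjusted p = 0.017, called in 3 of 8). Cdh8, Cdh22 and Cdh4 leaned to CAST in the PFC with log2 ratios of 0.50, 0.42 and 0.36, called in 3, 2 and 1 of the 4 fits that left out a pool, and Cdh22 was at -0.11 on its single base with most reads. Pcdh7 and Pcdh9 leaned to B6 in the POA at -0.35 and -0.20, and neither call was kept when a pool was left out.

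**Figure D4:**
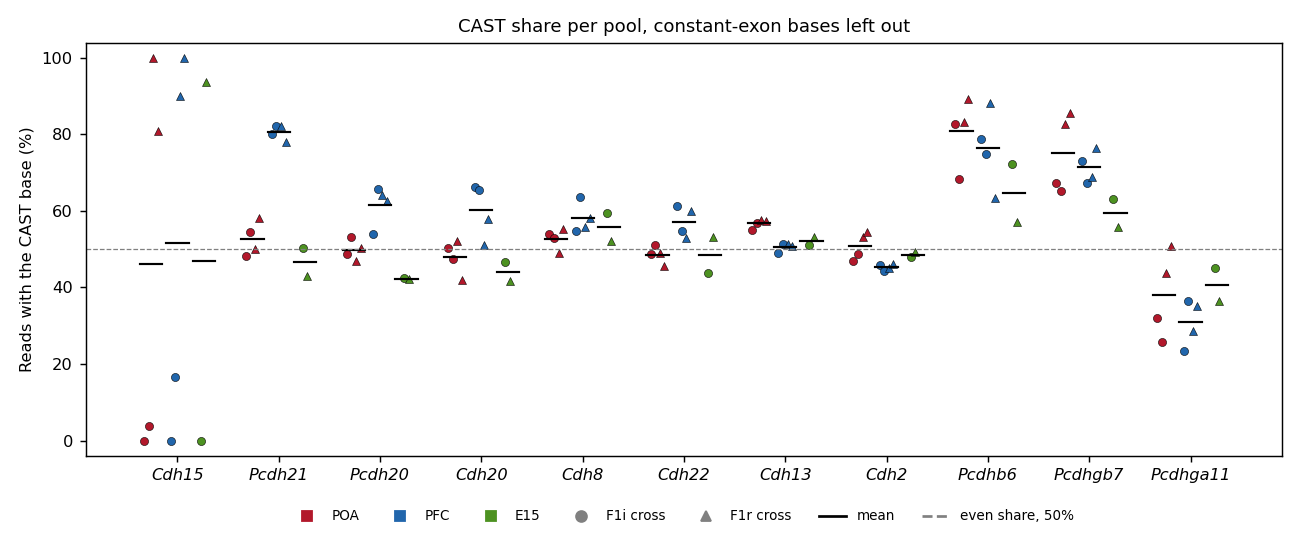
Percent of reads with the CAST base (vertical axis) for 11 members, with a point per pool (circles F1i, triangles F1r) for the POA (red), the PFC (blue) and E15 (green), a line at each mean and a dashed line at an even share. The circles of Cdh15 lie between 0 and 16.7% and its triangles between 81.0 and 100%, and the PFC pools of Pcdh21 lie between 77.9 and 82.3%.

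In the clusters, ratios in both directions stood side by side. Pcdhb6 had 82.8, 68.4, 83.3 and 89.4% CAST in the 4 POA pools and 78.9, 75, 88.2 and 63.3% in the 4 PFC pools, above an even share in all 8 adult pools (log2 2.07 ± 0.25 and 1.55 ± 0.36, edgeR adjusted p = 1.1e-05 and 0.0020), from 17 to 79 reads a pool. Pcdhgb7 had 67.2, 65.4, 82.8 and 85.6% in the POA pools and 73.1, 67.4, 68.9 and 76.5% in the PFC pools at isoform bases (log2 ratios of 1.71 ± 0.11 in the POA, edgeR adjusted p = 7.9e-09, and 1.30 ± 0.13 in the PFC), and 63.2 and 55.7% at E15. Pcdhb3 also leaned to CAST in both adult regions, but reads aligned to the genome gave 38.1, 35.7, 55.0 and 73.5% CAST in its POA pools. Pcdhb4, Pcdhga6 and Pcdhgb8 leaned to CAST in both adult regions too, with Pcdhgb8 at 1.52 and 2.38 at isoform bases. In the other direction Pcdhga11 had 32.0, 25.7, 43.9 and 50.7% CAST in the POA pools and 23.3, 36.6, 28.7 and 35.1% in the PFC pools (log2 -0.72 ± 0.16 and -1.11 ± 0.14, edgeR adjusted p = 0.0023 and 2.7e-06). Pcdhb20 leaned to B6 by -0.56 and -0.71, and Pcdha8 by -1.63 and -1.40 at isoform bases. Pcdhb15 leaned to B6 in the PFC by -1.64 and Pcdhb19 in the POA by -0.69. When a pool was left out, the calls were kept in all 4 fits for Pcdhb6 and Pcdhgb7 in both regions, in 3 of 4 for Pcdhga11 in the POA, in 2 of 4 for Pcdhb3 in the PFC, Pcdhb4 in both regions and Pcdhb20 in the POA, and in 1 of 4 for Pcdhb19.

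Over all bases 14 of 14 Pcdha symbols leaned to CAST in the POA, among them Pcdha10 and Pcdhac1, which had at most 6 reads a pool at isoform bases. The Pcdha constant base with most POA reads, 383 in all, held 57.4 and 55.0% CAST in the F1i male and female pools and 84.2 and 96.0% in the F1r pools. The other constant bases, with 51 and 32 reads, held 50 and 40%, and 71.4 and 55.6%, in the F1i pools, and 20 and 38.9%, and 80.0 and 72.7%, in the F1r pools. The 3 bases of the same exons thus did not share a direction. Pcdha5 alone of the Pcdha isoforms passed toward CAST at isoform bases, with 78.9, 64.8, 62.5 and 69.6% in the POA (log2 1.11 ± 0.21, edgeR adjusted p = 0.00074), and 61.6% in both E15 pools.

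Within the POA the F1r pools held more CAST reads than the F1i pools for many clustered isoforms. Counting members with at least 20 reads in each pool at isoform bases, both F1r pools were above both F1i pools for 19 of 33 clustered members, beside 18.8% of all genes, among them 13 of 17 Pcdhg, 4 of 10 Pcdhb and 2 of 6 Pcdha. It was so for 4 of 19 other members and for 27.4% of the 285 genes of chromosome 18 that are no members. In the PFC it was so for 4 of 32 clustered members, beside 21.7% of all genes, and for 0 of 15 Pcdhg. The median CAST share over the Pcdhg isoforms was 50.6% in the F1i male and 47.2% in the F1i female POA pool, against 60.2% in the F1r male and 62.7% in the F1r female pool. The Pcdhg constant base did not show this split in the POA, where it held 55.5 and 59.6% CAST in the F1i male and female pools and 63.4 and 57.8% in the F1r pools. In the PFC, with 992 reads, it was split the other way. There it held 61.1 and 58.2% CAST in the F1i male and female pools and 46.2 and 48.0% in the F1r pools. Isoforms of a cluster may share reads and neighbouring bases, so their number is not a number of independent observations.

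**Figure D5:**
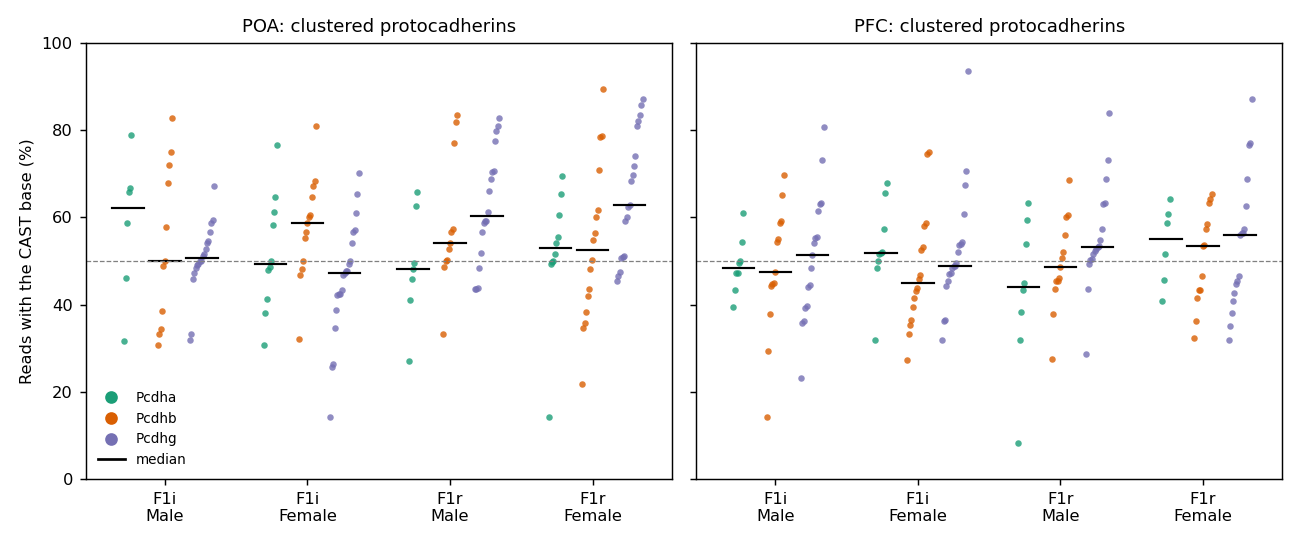
Percent of reads with the CAST base (vertical axis) at isoform bases of clustered protocadherins with at least 20 reads in the pool, a point per isoform, by pool, for the POA (left) and the PFC (right), with green for Pcdha, orange for Pcdhb, purple for Pcdhg, and a line at each median. The Pcdhg median is 50.6 and 47.2% in the F1i POA pools and 60.2 and 62.7% in the F1r POA pools.

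Among the isoforms with this split, Pcdhga7 had 56.6 and 56.7% CAST in the F1i male and female POA pools against 77.5 and 87.2% in the F1r male and female pools. At 22 of its 24 POA bases with at least 20 reads the F1r share was the higher one, against 3 of 15 in the PFC. Pcdhga12 had 51.6 and 43.4% in F1i against 68.7 and 80.9% in F1r, in the same direction at 19 of 19 bases. These isoforms were named for their split, and their bases hold the same reads, so the base counts are no independent evidence for it. Pcdhgb6 had 49.3 and 42.5% in F1i against 79.7 and 74.0% in F1r. A higher paternal share would give more CAST in F1r than in F1i, and any other difference between the pools of the crosses cannot be told apart from it here. In the F1i pools the CAST copy of Pcdhga7, at 56.6 and 56.7%, was the maternal one.

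The maternal share (CAST in F1i, B6 in F1r) was tested directly. Over both adult regions 0 of 63 members passed edgeR's test, and 0 by DESeq2, beside 0.721% of all genes, with 18 at an unadjusted p under 0.05. In the POA 2 of 68 passed, beside 1.1% of all genes, both with less maternal RNA. DESeq2 called 0 in the POA, as did the fit with all chromosomes and the one on the single base with most reads. Pcdhga12 had a log2 ratio of maternal over paternal of -0.98 ± 0.14 (edgeR adjusted p = 0.00050) and was called in 2 of 4 fits that left out a pool. Pcdha6 had -0.64 over all bases (edgeR adjusted p = 0.048) and -0.12 at isoform bases, where it did not pass, and its call was kept in 1 of 4 fits that left out a pool. At isoform bases 3 of 61 passed, beside 1.11% of all genes: Pcdhga12, Pcdhgb6 at -0.97 and Pcdhgb1 at -0.77. In the PFC 0 of 68 passed, and 0 by DESeq2, beside 0.444%, with 15 at an unadjusted p under 0.05. The POA minus PFC difference of the parental ratio, tested after seeing the data, passed for 3 of 63 members, beside 0.286%: Pcdhga7 at -1.01 ± 0.21 (edgeR adjusted p = 0.020), Pcdhga12 at -0.97 ± 0.17 (edgeR adjusted p = 0.0038) and Pcdhgb7 at -0.59. Their calls were kept in 2, 4 and 2 of the 8 fits that left out a pool. DESeq2 and the fit with all chromosomes called 0 for this difference, while more passed on the single base with most reads.

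At E15, with 1 pool per cross, Fisher's exact test called 13 of 84 members, beside 4.93% of all genes, and covers counting error only. Of these 12 were Pcdha symbols that share constant bases, and the other was Pcdhb4 at a log2 of 0.58. With the constant bases left out 3 of 81 passed, beside 4.86%: Pcdhb4, Pcdhga6 at 0.55 and Pcdhga7 at -0.26.

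Cdh15, on chromosome 8 (chr8:125371866-125391297, plus strand), had too few reads for these fits and was singled out after its values were seen. The CAST copy gave 0 of 8, 1 of 26, 16 of 16 and 17 of 21 reads in the POA pools, 0 of 5, 1 of 6, 9 of 10 and 11 of 11 in the PFC pools, and 0 of 4 (F1i) and 15 of 16 (F1r) at E15. In every pool the father's copy, whichever strain he was, gave more reads than the mother's, whose highest shares were 4 of 21 reads (19.0%) in the F1r female POA pool and 1 of 6 (16.7%) in the F1i female PFC pool. The maternal copy gave 5 of 71 reads in the POA (7.04%, Clopper-Pearson 95% interval 2.33 to 15.7%), 2 of 32 in the PFC (6.25%, 0.766 to 20.8%) and 1 of 20 at E15 (5.00%, 0.127 to 24.9%), intervals that cover counting error only. Its CAST share averaged 5.13 ± 7.90% in the F1i pools and 92.7 ± 9.16% in the F1r pools of the adult (SD, n = 4 each), a description with no test since the gene was chosen for this split. The minimum was lowered to a mean of 5 reads a pool after seeing the data, which let Cdh15 enter the fits. The p-values of Cdh15 below rest on the reads for which it was chosen, so they are no independent support for the split. With this minimum Cdh15 had a log2 ratio of maternal over paternal of -3.74 ± 0.46 over the adult pools (edgeR adjusted p = 4.3e-06) and was the only member called of 73, beside 0.71% of all genes. In the POA 3 of 80 members passed, beside 0.989% of all genes: Cdh15 at -3.87 ± 0.58 (edgeR adjusted p = 0.00095), Pcdhga12, and Pcdhga3 at -1.99 ± 0.47 (edgeR adjusted p = 0.048). Cdh15 also passed at E15 at -3.27 (Fisher's exact test, adjusted p = 0.018), and missed the threshold in the PFC at -3.53 ± 0.77 (edgeR adjusted p = 0.060).

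At isoform bases, and with at least 20 reads, no other member came near these shares. The next lowest maternal shares were 21.8% for Pcdhga3 in the POA (55 reads), 35.7% for Pcdhb18 in the PFC (28 reads) and 32.9% for Pcdha8 at E15 (73 reads). Reads aligned to the genome covered 1 base of Cdh15, with CAST at 0 of 3 reads (F1i) and 8 of 8 (F1r) at E15, and at 0% in both F1i and 100 and 87.5% in the F1r male and female POA pools. In the PFC it held 0% of 1 and 33.3% of 3 reads in F1i, against 100% of 2 and of 4 in F1r. In the annotation a long locus, Gm20388, spans the gene on the same strand, and reads of the 2 cannot be told apart.

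The parent strains at E15, 1 pool each and so with no test, gave a second view of the strain difference. Over 61 members with at least 40 reads at isoform bases the median log2 ratio of CAST over B6 was 0.18 between the strains and -0.06 between the alleles of the F1 brain, against 0.003 and -0.11 over all genes. Between the strains 8 of the 61 members passed a log2 of 1 in size, beside 674 of 11529 genes. Between the F1 alleles 3 did, beside 458 of 11529, a share near that of all genes. All of these members were clustered, as were 40 of the 61. Pcdhb4 had 1.40 between the strains and 0.84 between the F1 alleles, Pcdhgb7 1.01 and 0.57, and Pcdhga2 -1.79 and -1.18, while Pcdha1 had 1.57 between the strains and -0.12 between the F1 alleles.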

How the data were processed

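Poly A RNA of mouse brain was fragmented, primed with random hexamers, size-selected at about 200 bp and sequenced for 36 cycles, per the labels' protocols. Novoalign (version not given in the sources used here) and the mm9 build are named in the submitters' processing notes. The authors deposited counts: at each base that differs between the strains, the reads with the CAST and with the B6 base, per pool, technical replicates summed. Every listed base had at least 1 read in each pool of its region. Repeated listings were dropped (1056 POA, 911 PFC, 2073 E15), and reads were summed over the bases of each gene's transcript with most reads. Totals used the bases listed in both tables compared, TMM scaling, filterByExpr and edgeR 4.0.16 (R 4.3.3). Allele fits used edgeR with a term per pool on autosomal genes with a mean of at least 20 reads per pool, and a parental call also needed maternal shares above 50% in each cross, or below it in each. The E15 parental test was Fisher's exact test, with 0.5 added to each cell for its log2 ratio. DESeq2 1.42.0 was an alternative, and the scripts were tested on simulated data. Constant exon bases were those with the same reads under 10 or more clustered symbols. Bases were placed on NCBIM37 through GENCODE vM1 for 13 of 133 listed transcripts. Of 473 bases found in both the transcript-aligned and the genome-aligned tables, with at least 20 transcript-aligned reads, 382 agreed within 10% in read number. Adult parental libraries and the functional RNA tables were not used here.

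Members and lists were chosen with earlier results of these data known. Named were the up to 12 called members of largest log2 value in each direction for totals, the up to 10 for the strain allele with the share on the same side in every pool, every called member for the parental allele, and Cdh2, Cdh4, Cdh8, Cdh10, Cdh11, Cdh13, Pcdh9, Pcdh10 and Pcdh17. Cdh10 had 24 reads in the PFC and 82 at E15 and entered no total comparison. Intervals are Clopper-Pearson, 95%, and cover counting error only.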

Additional observations from a re-analysis of the deposited data

Results flagged for a closer look

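Among 184 sets of 4 adult pools, 5 had a pool far from the other 3, fewer than the 1 in 20 that chance gives. These were Pcdh17 at 44.7 RPM in the F1i male POA pool, Cdh6 at 0.89, Pcdh7 at 3.18 and Pcdhb20 at 28.2 RPM in a PFC pool, and Pcdhgb6 with a CAST share of 73.1% in a PFC pool.

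The strain allele ratio differed between POA and PFC, in edgeR's test of the difference at isoform bases, for 10 members. The log2 ratio of CAST over B6 was higher in the POA by 0.36 for Cdh13, 0.33 for Cdh2, 0.80 for Pcdha5, 0.82 for Pcdhb5, 1.16 for Pcdhb7, 0.92 for Pcdhga12 and 1.05 for Pcdhga7. It was lower in the POA for Cdh20 (-0.75), Pcdh20 (-0.71) and Pcdh21 (-1.496). The parental ratio of maternal over paternal reads also differed between the regions in edgeR's test, with POA minus PFC values of -0.96 for Pcdhga12 and -1.01 for Pcdhga7.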

How the results depend on the processing

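Counts of members called moved with the bases that were summed, the chromosomes in the fit and the tool. Over the single base with most reads, 15 members in place of 40 passed in POA over PFC, 0 of 3 for the strain allele at E15, 0 of 21 for its POA minus PFC difference, 0 of 2 for the parental allele in the POA, 1 of 13 at E15, and 13 in place of 3 for the parental POA minus PFC difference. With all bases listed in each table, 65 passed in POA over E15 (36) and 54 in PFC over E15 (25). With constant bases left out, 25 passed in POA over PFC, 20 for the strain allele in the POA (41), 5 at E15, 10 for its POA minus PFC difference and 3 for the parental allele at E15. With all chromosomes in the fit, 22 passed for the strain allele in the POA, 11 in the PFC (23), 0 at E15 and 3 for the difference, and 0 for the parental allele in the POA and its difference. DESeq2 called 17, 5 and 8 for the strain allele in the POA, the PFC and their difference, and 0 for the parental allele in the POA and its difference. TMM over the allele columns gave 5 for the strain allele at E15, the dispersion of the adult fit 0 for the parental allele there, and a mean of 5 reads 1 in the adult. Leaving out a pool gave 21 to 39 in POA over PFC, 27 to 36, 13 to 18 and 9 to 21 for the strain allele in the POA, the PFC and their difference, 0 to 2 for the parental allele in the adult and in the POA, and 0 to 14 for its difference. The counts past 1.5 times their value in the report were, in POA over PFC, 22, 26 and 21 without the POA F1r male, F1i female and F1r female pools; for the strain allele, 27 without the POA F1i female pool, 15, 15 and 13 without the PFC F1i male, F1i female and F1r female pools, and 9 and 13 for the difference without the POA and the PFC F1r female pools. For the parental allele they were 2 in the adult without the PFC F1i female pool, 0 in the POA without either of its female pools, and for the difference 14 without the POA F1r male pool and 0 or 1 without each other pool but the PFC F1i male one, where 2 passed. The cause was not tested.

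Signs turned for 20 gene results. On the single base with most reads these were, in POA over PFC, Cdh4 at -0.44 and Pcdha5, Pcdha6, Pcdha7, Pcdha8, Pcdha10 and Pcdha11 at 0.43; in POA over E15, Pcdha2, Pcdha5, Pcdha9 and Pcdha12 at 0.57 and Cdh8 at 0.076; in PFC over E15, Pcdh21 at -0.40; for the strain allele, Cdh22 at -0.11 and Cdh2 at 0.13 in the PFC, Pcdhga12 at 0.32 at E15 and Cdh13 at -0.026 for POA minus PFC. With all bases listed, Pcdhb10 was -1.85 and Pcdhgc4 -0.65 in POA over E15, and with constant bases left out Pcdha8 was -0.81 for the E15 parental allele. Of the other gene results 2400 kept direction and side of the threshold, 282 lost and 15 gained significance. Replicate numbers in the labels mark technical replicates that had been summed. POA and PFC pools of the same cross and sex could be paired, an alternative chosen after seeing the data: their deviations from the region means correlated at 0.0189 to 0.212 over genes, so the pools share a cross and a sex and were not treated as paired. With this replicate block 41 members passed in POA over PFC (40), 20 for the strain difference (21) and 3 for the parental difference (3). Leaving out the constant bases took the gap between clustered and other members in the POA to 3.72 points. With bases whose reads repeat under another clustered symbol also left out it was 6.60 points.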

Other observations

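Some members had many informative reads at E15 and few or none at the bases listed for the adult regions, and entered no comparison of totals. Cdh1 (E-cadherin, of epithelia) had 301 informative reads at E15 and 34 in the PFC, Cdh23 (a cadherin of hair cell tip links) 298 at E15 and 22 in the POA, and Pcdh15, its partner there, 238 at E15, 37 in the POA and 45 in the PFC. Cdh3 (P-cadherin) had 298 reads at E15, and Pcdh12, a protocadherin of vessels, 124. Bases differ between the tables, so these sums are no measure of change, and few listed bases do not mean little RNA. Reads aligned to the genome gave Cdh1 101 to 281 reads a pool in the POA and 131 to 185 in the PFC, at 4 bases in each region. At E15 they gave 573 (F1i) and 410 (F1r) at 14 bases.

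The median CAST share of the clustered members exceeded that of the others by 8.37 points in the POA (SD 3.34 over 4 pools), and differed by -1.95 points in the PFC (SD 1.75) and 1.13 at E15 (SD 2.71 over 2 pools). With the constant bases left out the difference was 3.72 points in the POA (SD 2.66), -1.58 in the PFC (SD 1.998) and 0.412 at E15 (SD 1.01).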
